A study of Ciona robusta with 6 samples.

Results

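The anterior neural plate (ANP) is the anterior neuroectoderm of the *Ciona robusta* embryo. Levels of genes known from the tail muscle, the notochord and the midline were followed in ANP cells sorted by FACS on GFP. The cells came with and without misexpression of *Lhx3/4*, a LIM homeobox factor of the cardiopharyngeal lineage. Whether any of these genes is also expressed within the ANP was not tested. The set holds 7 of the 16526 gene models in the count files: 3 *Tbx6-related* models (KH2012:KH.S654.1, KH2012:KH.S654.2 and KH2012:KH.S654.3), *Mrf* (KH2012:KH.C14.307), a homolog of human *TTN* (KH2012:KH.C1.1072), *Brachyury* (KH2012:KH.S1404.1) and *Foxa.a* (KH2012:KH.C11.313). The prefix KH2012, the set of gene models, is left off from here on. They were chosen by identity, but with earlier results of these data known, so their directions are not independent evidence. The 2 questions were how much RNA of these genes the sorted samples held, and whether *Lhx3/4* added any. The files carry model IDs only, and *Mrf*, *Brachyury* and *Foxa.a* are the names under which these IDs were chosen, as is *Tbx6-related* for KH.S654.3. KH.S654.1 stands beside TBX6 in one of the study's gene lists and beside PTF1A in another, whose homolog names are out of order against the model IDs, so it is read as *Tbx6-related* here. No other homolog name used here rests on that list alone.

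The misexpressing cells came from 3 samples of embryos electroporated with *Dmrt>GFP* plus *Dmrt>Lhx3/4*, called *Lhx3/4* libraries here. The 3 control samples carried *Dmrt>GFP* alone. All embryos were wild type, were raised at 18°C, and in both groups the *Dmrt* enhancer drove the transgenes, so that the sort rests on where that enhancer is active. Electroporated plasmids are usually inherited by only part of the cells of an embryo. The labels call the libraries biological replicates, but nothing ties a number to an electroporation, so p-values speak only of how far these 6 libraries scatter.

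In ascidian embryos the tail muscle is specified largely by maternal determinants. These switch on T-box factors of the *Tbx6-related* group, which act upstream of *Mrf*, the single myogenic bHLH factor of *Ciona* and a relative of vertebrate *MyoD*. *TTN* encodes titin, the giant protein that spans the sarcomere in vertebrate muscle. *Brachyury* is the T-box factor that specifies the notochord, and *Foxa.a* is a forkhead factor of the endoderm, notochord and ventral midline that acts upstream of *Brachyury*.

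The genes did not move as one group. The *TTN* homolog rose in the *Lhx3/4* cells, while the regulators of muscle and notochord all had lower mean levels there. Levels are given as CPM, the reads of a gene scaled to a common library size, and they are not corrected for gene length, so levels of different genes are not ranked. Libraries held 52.6 to 71.2 M reads assigned to genes, so that 1 read was worth 0.0137 to 0.0180 CPM. All 7 genes passed the minimum of 100 reads over the 6 libraries, as did 13641 genes in all. Calls required both an adjusted p under 0.05 in edgeR's quasi-likelihood test and a log2 fold change of 0.58 or more in size. By this test 1 of the 7 genes was called higher and 0 were called lower, where 1.85% and 2.92% of all tested genes were called higher and lower. At an unadjusted p under 0.05, 1 was higher and 3 were lower, beside 7.28% and 8.58% of all tested genes. DESeq2 called 1 of the 7 genes higher and 2 lower, beside 3.5% and 5.47% of all tested genes. The edgeR fit with the replicate number as a block also called 1 higher and 2 lower, beside 4.72% and 6.94%. The median log2 fold change of the 7 genes was -1.57, beside 0.01 over all tested genes. In these bulk samples, fewer cells of a type and less RNA per cell cannot be told apart.

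Whether the levels of the groups overlapped gave a second description. For 3 genes (KH.S654.1, KH.S654.2 and *Brachyury*) every *Lhx3/4* library lay below every control, which 10.6% of all tested genes did. For the *TTN* homolog every *Lhx3/4* library lay above every control, as for 10.9% of tested genes. The groups overlapped for KH.S654.3, *Mrf* and *Foxa.a*. Apart from the *TTN* homolog, the 6 genes also belong to the list of 327 transcription factors used in the study. Of its 294 tested genes 16.7% were called lower and 3.4% higher, a larger share of lower calls than over all genes. With the replicate number as a block, 24.5% of them were called lower and 10.2% higher, also above the shares over all genes. KH.S654.1 and *Mrf*, the members called lower in that fit, are both on the list.

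**Figure D1:**
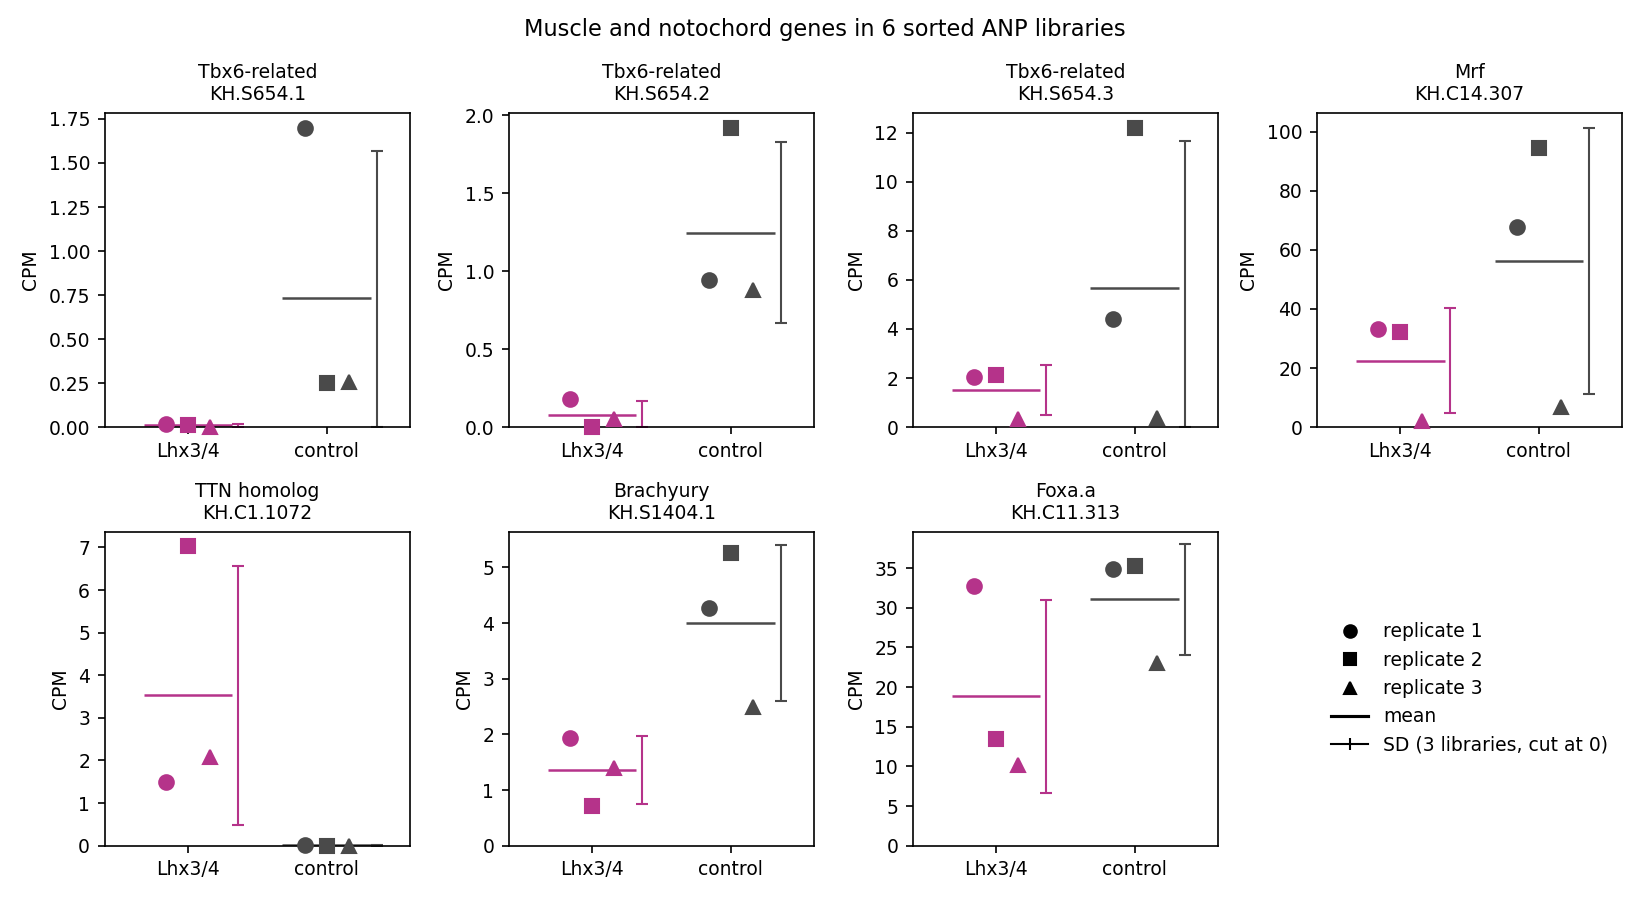
CPM of each gene (vertical axes, starting at 0) in the 3 *Lhx3/4* and the 3 control libraries, with 1 symbol for each replicate number, a line at the mean and a bar for the SD. The *TTN* homolog reached 7.02 CPM in *Lhx3/4* cells and was close to 0 in controls. Replicate 3 was lowest in both groups for *Mrf*, KH.S654.3 and *Foxa.a*.

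Expression of the *TTN* homolog was close to absent from control ANP cells. It had 83, 479 and 151 reads in *Lhx3/4* replicates 1, 2 and 3, against 1, 0 and 0 reads in control replicates 1, 2 and 3. These counts equal 1.49, 7.02 and 2.07 CPM in *Lhx3/4* cells, and 0.017, 0 and 0 CPM in controls. All *Lhx3/4* libraries were far above the controls, and among themselves they differed 4.71-fold. Over the summed reads (713 and 1) the ratio was 673, with an exact binomial 95% interval from 120 to 26639 that covers counting error only. The gene was called higher (edgeR adjusted p = 0.00600), and also with the replicate number as a block (edgeR adjusted p = 0.00123) and by DESeq2 (adjusted p = 8.6e-09). *Lhx3/4* replicate 2 held the most reads, and without it the ratio was 338 (60.2 to 13424). The only control read came from control replicate 1. Without that library the gene was at least 154-fold higher in *Lhx3/4* cells, taking 3 counts over the remaining controls as the floor. The call held with any 1 library left out (edgeR adjusted p from 0.0112 to 0.0316).

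The 3 *Tbx6-related* models were all present in control cells at a low level, and 2 of them were nearly missing from *Lhx3/4* cells. KH.S654.1 had 1, 1 and 0 reads in *Lhx3/4* replicates 1, 2 and 3, against 99, 15 and 17 reads in control replicates 1, 2 and 3. Control replicate 1 stood 6.85-fold above the lowest control in CPM. The summed reads, 2 in *Lhx3/4* cells and 131 in controls, give a level 69.3-fold lower in *Lhx3/4* cells (counting interval 18.8 to 579). Without control replicate 1, which held 99 of the 131 control reads, it was 24.7-fold lower (6.30 to 213), and without *Lhx3/4* replicate 3 it was 43.7-fold lower (11.9 to 364). The fitted log2 fold change was -5.89 (SE 1.38), which missed the threshold (edgeR adjusted p = 0.0595). With the replicate number as a block it was -5.58 and the gene was called lower (edgeR adjusted p = 0.0191), and DESeq2 also called it lower (adjusted p = 0.00471). The call was also made without control replicate 3 (edgeR adjusted p = 0.0474). Without control replicate 1 the gene was under the read minimum and was not tested.

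KH.S654.2 had 10, 0 and 4 reads in *Lhx3/4* replicates 1, 2 and 3, against 55, 116 and 59 reads in control replicates 1, 2 and 3. Its mean level was 0.0783 ± 0.0921 CPM in *Lhx3/4* cells and 1.25 ± 0.582 CPM in controls (SD, n = 3 each). The highest *Lhx3/4* library lay well below the lowest control. Summed reads were 17.4-fold lower in *Lhx3/4* cells (counting interval 10.2 to 32.3). The log2 fold change of -4.00 (SE 1.19) did not pass edgeR's test (adjusted p = 0.130), nor with the block (edgeR adjusted p = 0.0605), while DESeq2 called it lower (adjusted p = 0.0134).

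KH.S654.3 took up most reads of the family in 5 of the 6 libraries, and its groups overlapped. It had 2.05, 2.14 and 0.330 CPM in *Lhx3/4* replicates 1, 2 and 3, against 4.39, 12.2 and 0.373 CPM in control replicates 1, 2 and 3. The libraries numbered 3 were lowest in both groups and nearly equal, at 24 reads in the *Lhx3/4* library and 25 in the control. Within controls the level varied 32.6-fold. The log2 fold change was -1.91 (SE 1.13, 95% confidence interval -4.55 to 0.74, edgeR adjusted p = 0.497). With the replicate number as a block it was -1.34 (SE 0.49, 95% confidence interval -2.49 to -0.19), which did not pass over all genes either (edgeR adjusted p = 0.116). Within replicate number the *Lhx3/4* libraries held 46.7%, 17.6% and 88.3% of the control level for numbers 1, 2 and 3.

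Reads of the 3 models were also added up per library, since near-identical copies can share reads and the counting drops reads that map to more than 1 place (1.92% to 2.51% of all counts in a library). The sum was 2.25, 2.16 and 0.385 CPM in *Lhx3/4* replicates 1, 2 and 3, against 7.04, 14.4 and 1.51 CPM in control replicates 1, 2 and 3. Each *Lhx3/4* library was below its control of the same number, but *Lhx3/4* replicates 1 and 2 were above control replicate 3. The log2 fold change of the sum was -2.26 (SE 0.91, edgeR adjusted p = 0.279). With the block it was -2.12 (SE 0.33) and was called lower (edgeR adjusted p = 0.00620). KH.S654.3 made up 91.2%, 99.3% and 85.7% of these reads in *Lhx3/4* replicates 1, 2 and 3, against 62.4%, 84.9% and 24.8% in control replicates 1, 2 and 3. The make-up of the family thus differed between the control libraries as well as between the groups. Reads were not corrected for the length of each model.

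*Mrf* was present in every library and varied widely among replicates. It had 33.2, 32.3 and 1.96 CPM in *Lhx3/4* replicates 1, 2 and 3, against 67.7, 94.6 and 6.81 CPM in control replicates 1, 2 and 3. Replicate 3 was lowest in each group by a wide margin, and *Lhx3/4* replicates 1 and 2 lay above control replicate 3. The highest library exceeded the lowest 16.9-fold within the *Lhx3/4* group and 13.9-fold within the controls, against a 2.51-fold lower fitted level in *Lhx3/4* cells. Without regard to replicate number the difference was smaller than this spread (log2 fold change -1.33, SE 1.09, 95% confidence interval -3.87 to 1.21, edgeR adjusted p = 0.655).

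Compared within replicate number, *Mrf* in the *Lhx3/4* library was 49.0%, 34.2% and 28.9% of its control for numbers 1, 2 and 3. With the number as a block the log2 fold change was -1.44 (SE 0.17, 95% confidence interval -1.83 to -1.05) and *Mrf* was called lower (edgeR adjusted p = 0.00147), where that fit called 6.94% of all tested genes lower and 4.72% higher. Of the tested genes on the transcription factor list, which holds *Mrf*, that fit called 24.5% lower and 10.2% higher. Whether the numbers stand for shared electroporations is not stated. When both libraries numbered 3 were left out, *Mrf* was called lower without the block as well (log2 fold change -1.31, edgeR adjusted p = 0.0379). DESeq2, without the block, did not call it (adjusted p = 0.719). DESeq2 with the block was not run.

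**Figure D2:**
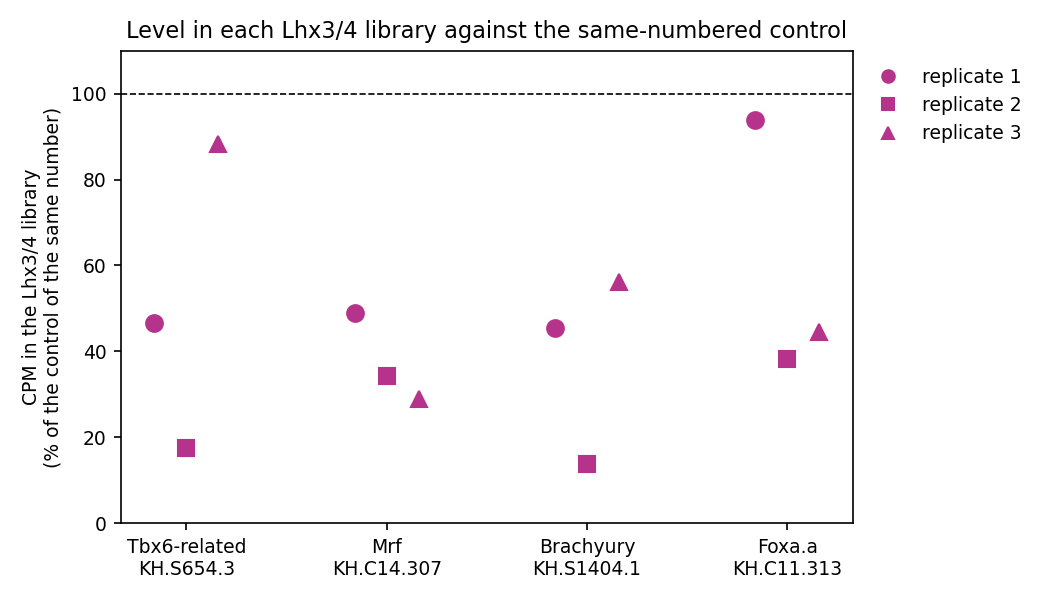
CPM in each *Lhx3/4* library as a percent of the control library of the same number (vertical axis, dashed line at 100%), for the 4 genes with reads enough in every library. All 12 points lie below 100%, and for *Mrf* they lie between 28.9% and 49.0%.

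The 3 ANP genes read here did not follow the drop of *Mrf* in control replicate 3. The part that the make-up of the sorted cells has in that drop was not tested. *Onecut*, an ANP transcription factor, had 20.7, 24.5 and 17.0 CPM in *Lhx3/4* replicates 1, 2 and 3, against 363, 385 and 487 CPM in control replicates 1, 2 and 3. *Six3/6*, a homeobox factor of the anterior neural territory, had 32.7, 38.1 and 57.4 CPM in *Lhx3/4* cells, against 378, 478 and 432 CPM in controls. *Tyrp-1*, a pigment enzyme gene, had 85, 399 and 755 reads in *Lhx3/4* cells, against 23211, 32121 and 40797 reads in controls. These 3 genes, which mark the sorted lineage, were all called lower in *Lhx3/4* cells (edgeR adjusted p from 0.000200 to 0.00269). The study names them from the ANP genes most lowered in these same libraries, so these calls are not independent evidence. Their levels in *Lhx3/4* libraries therefore cannot gauge the make-up of the sorted cells there. Control replicate 3 was thus at the top of the controls for *Onecut* and *Tyrp-1* and between the others for *Six3/6*. *Foxf*, a cardiopharyngeal gene, had 169, 182 and 149 CPM in *Lhx3/4* replicates 1, 2 and 3. Its controls held 44.4, 55.4 and 21.8 CPM in the same order, with control replicate 3 lowest. *Foxf* was called higher in *Lhx3/4* cells (edgeR adjusted p = 0.0115). The misexpressed gene checked the labels, since *Lhx3/4* had 644, 617 and 541 CPM in *Lhx3/4* libraries, against 34.7, 53.2 and 30.1 CPM in controls.

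*Brachyury*, the notochord gene, was low in all libraries. It had 1.94, 0.719 and 1.40 CPM in *Lhx3/4* replicates 1, 2 and 3, against 4.27, 5.26 and 2.49 CPM in control replicates 1, 2 and 3. The highest *Lhx3/4* library stayed below the lowest control. The mean was 1.35 ± 0.613 CPM in *Lhx3/4* cells and 4.01 ± 1.40 CPM in controls (SD, n = 3 each). The log2 fold change of -1.57 (SE 0.52, 95% confidence interval -2.77 to -0.36) missed the threshold over all genes (edgeR adjusted p = 0.176), with the block (edgeR adjusted p = 0.0775) and in DESeq2 (adjusted p = 0.0527). Within replicate number the *Lhx3/4* libraries held 45.4%, 13.7% and 56.2% of the control level for numbers 1, 2 and 3.

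*Foxa.a* had the smallest fitted difference of the 7 genes. It had 32.8, 13.5 and 10.2 CPM in *Lhx3/4* replicates 1, 2 and 3, against 34.9, 35.3 and 23.0 CPM in control replicates 1, 2 and 3. *Lhx3/4* replicate 1 lay among the controls, at 93.9% of its control, and *Lhx3/4* replicates 2 and 3 lay at 38.3% and 44.4% of theirs. The log2 fold change was -0.72 (SE 0.44, 95% confidence interval -1.74 to 0.30, edgeR adjusted p = 0.508), and -0.88 with the block (edgeR adjusted p = 0.0604).

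**Figure D3:**
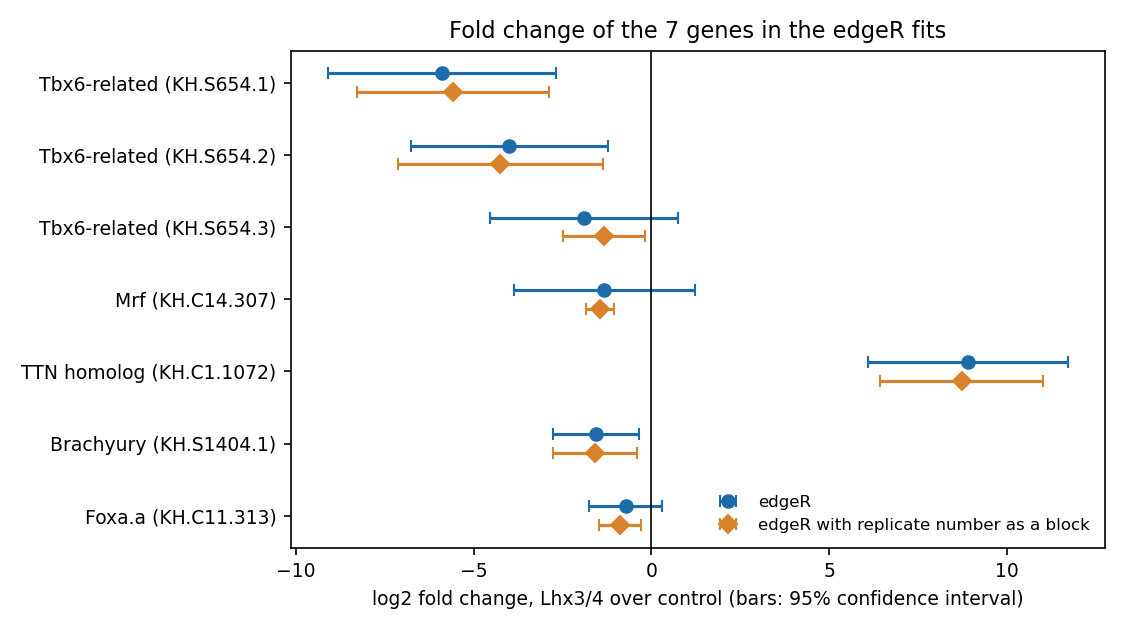
Log2 fold change, *Lhx3/4* over control (horizontal axis), of the 7 genes with its 95% confidence interval, in the edgeR fit and in the fit with the replicate number as a block. The interval of *Mrf* runs from -3.87 to 1.21 without the block and from -1.83 to -1.05 with it, and the fitted values of the *TTN* homolog and KH.S654.1 rest on groups with almost no reads.

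The genes did not share 1 pattern over the libraries. Over the log2 CPM of the 6 libraries, given as a description of points that include both groups, *Mrf* resembled KH.S654.3 (Pearson's r = 0.95). KH.S654.2 resembled *Brachyury* (r = 0.97). The *TTN* homolog ran against KH.S654.2 (r = -0.97) and much less against *Mrf* (r = -0.30). *Mrf*, KH.S654.3 and, by a smaller margin, *Foxa.a* were lowest in replicate 3 of each group. KH.S654.1, KH.S654.2, *Brachyury* and the *TTN* homolog had groups that did not overlap.

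The tested genes most like each member were listed by the same measure, and none has a name paired here. These are the best matches among 13640 genes over only 6 libraries, and the highest r for a member ran from 0.991 (*Brachyury*) to 0.999 (KH.S654.3). For *Mrf* these were KH.C4.271, KH.C9.78 and KH.S423.6. KH.C4.271 averaged 31.0 CPM in *Lhx3/4* cells and 99.8 CPM in controls. KH.C9.78 averaged 19.2 CPM in *Lhx3/4* cells and 74.6 CPM in controls, and KH.S423.6 averaged 85.1 CPM in *Lhx3/4* cells and 328 CPM in controls. None of these 3 genes was called lower by edgeR without the block, and neither was *Mrf*, which they were picked to resemble. With r of at least 0.95, 216 of the other 13640 tested genes (1.58%) resembled *Mrf* and 271 (1.99%) resembled KH.S654.3. The 3 most like KH.S654.1 were KH.C1.150, KH.C2.202 and KH.C10.345, and those most like KH.S654.2 were KH.S433.2, KH.C9.41 and KH.C5.402. KH.L152.31, KH.C1.384 and KH.C12.218 were most like KH.S654.3. KH.C11.254, KH.C2.194 and KH.L57.9 were most like *Brachyury*, and KH.C12.175, KH.C1.800 and KH.C1.714 most like *Foxa.a*. The genes most like the *TTN* homolog, KH.XM_018811110.1, KH.C1.131 and KH.C11.470, were all called higher by edgeR. That is not a separate result, since genes picked to resemble one that splits the groups must split them too.

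Genes whose human homologs act in muscle were read beside the *TTN* homolog. This list holds 5 genes whose names the study paired, and it paired names almost only with genes that changed in these libraries, so their directions are not independent evidence. By edgeR 2 were called higher, 0 lower and 3 did not pass, beside 1.85% of all tested genes called higher and 2.92% called lower. At an unadjusted p under 0.05, 4 were higher and 1 was lower, beside 7.28% and 8.58% of all tested genes. DESeq2 called 3 higher and 1 lower, beside 3.5% and 5.47% of all tested genes. With the block 3 were called higher, 1 lower and 1 did not pass, where that fit called 4.72% of all tested genes higher and 6.94% lower.

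The homolog of *FHOD3* (KH.C11.306), a formin that assembles actin filaments of the sarcomere in vertebrates, had 110, 62 and 117 reads in *Lhx3/4* replicates 1, 2 and 3, against 11, 11 and 4 reads in control replicates 1, 2 and 3. It was called higher (log2 fold change 3.37, SE 0.73, edgeR adjusted p = 0.0444), but with any 1 library left out it was not (edgeR adjusted p from 0.0571 to 0.147). The homolog of *VGLL2* (KH.L165.4), a cofactor of TEAD factors in vertebrate muscle, had 789, 681 and 1141 reads in *Lhx3/4* replicates 1, 2 and 3, against 137, 171 and 56 reads in control replicates 1, 2 and 3. It was called higher as well (log2 fold change 2.73, SE 0.49, edgeR adjusted p = 0.0199). That call was lost without control replicate 1 (edgeR adjusted p = 0.0649), without *Lhx3/4* replicate 1 (0.0669) and without *Lhx3/4* replicate 3 (0.0689). Both genes were higher in every *Lhx3/4* library than in every control.

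The homolog of *FHL2* (KH.C12.67), a LIM protein of vertebrate heart muscle, had a log2 fold change of 1.24 (SE 0.34, edgeR adjusted p = 0.105) and was called higher with the block (edgeR adjusted p = 0.0388). *PLEC* encodes plectin, a linker of the cytoskeleton, and its homolog (KH.C7.216) had a log2 fold change of 0.97 that passed neither fit (edgeR adjusted p = 0.244, and 0.117 with the block). The homolog of *LAMA2* (KH.C1.1211), a laminin chain of the muscle basement membrane, had a log2 fold change of -0.90 (SE 0.23, edgeR adjusted p = 0.0770) and was called lower with the block (edgeR adjusted p = 0.00192). With the block the list thus held calls in both directions.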

How the data were processed

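PolyA RNA of 6 FACS-collected samples was sequenced. Alignment was by HISAT2 (ci3 assembly) and counting by HTSeq over KH2012 models, and the authors deposited 1 file of raw counts per library. Versions and strand setting were not given in the sources used here. The labels and the paper's methods name different library kits. The 5 HTSeq summary lines (28.5% to 38.2% of counts, of which unaligned reads were 12.1% to 19.5% of counts) did not enter library sizes or tests. The authors' deposited DESeq2 comparison (fold changes and p-values) was not used.

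Counts were tested with edgeR 4.0.16 (quasi-likelihood, TMM factors 0.966 to 1.06) in R 4.3.3, on the genes that reached 100 reads summed over the 6 libraries, with Benjamini-Hochberg adjustment over all tested genes. The paper's fold change minimum of 1.5 was used. CPM were computed from these counts. Ratios with few reads have exact binomial 95% intervals. Correlations used log2 CPM with a prior count of 2. All 7 genes, the muscle-associated homologs and the reference genes were named, with the 3 genes most like each member. Members and lists were chosen with earlier results of these data known. The scripts were tested on simulated counts.

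The labels number both groups 1 to 3, so a fit with libraries of 1 number as pairs (the block) was an alternative. After subtracting each group's mean, log2 CPM correlated at 0.46 to 0.55 between *Lhx3/4* and control libraries of the same number. Between those of different number it correlated at -0.34 to -0.17. The main fit does not use the numbers and leaves this shared variation out. Alternatives were DESeq2 1.42.0, other normalizations and read minimums, a stricter threshold, the replicate block, each library left out, and, chosen after seeing the data, both libraries numbered 3 left out. None of the 7 IDs matched the reference gene table, so no coordinates or sequences are given.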

Additional observations from a re-analysis of the deposited data

How the results depend on the processing

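No direction reversed for any of the 7 genes. The *TTN* homolog was called higher under every alternative. Another normalization, another read minimum or an adjusted p under 0.01 changed no member's side of the threshold, except that KH.S654.1 was not tested with 100 reads required in at least 1 library, nor without control replicate 1. With edgeR, 0 members were called lower, against 2 by DESeq2 and 2 with the replicate block. Over all tested genes these fits called 2.92%, 5.47% and 6.94% lower. Over the tested genes of the transcription factor list, edgeR called 16.7% lower without the block and 24.5% with it. With both libraries numbered 3 left out, 1 member was called lower, beside 338 of all tested genes. With the block and those libraries left out it was 4 members, beside 1102 of all tested genes. Shares were not computed for these 2 settings, and lower calls rose over all genes as well with the block. KH.S654.1 passed by DESeq2 (log2 fold change -6.13), with the block (-5.58) and with the block and no libraries numbered 3 (-5.36). KH.S654.2 passed by DESeq2 only (-4.04). *Mrf* passed with the block (-1.44), with both libraries numbered 3 left out (-1.31) and with both choices (-1.29). With both choices KH.S654.3 (-1.81) and *Brachyury* (-1.99) also passed. The *Tbx6-related* sum passed with the block (-2.12) and with both choices (-2.20). The replicate block changed no other member's call. The cause of these differences was not tested.

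With 1 library left out, log2 fold changes ran from 7.91 to 10.83 for the *TTN* homolog, -6.36 to -5.33 for KH.S654.1 (not tested without control replicate 1), -5.41 to -3.41 for KH.S654.2, -2.46 to -0.66 for KH.S654.3, -2.75 to -1.42 for the *Tbx6-related* sum, -1.85 to -0.73 for *Mrf*, -1.94 to -1.26 for *Brachyury* and -1.41 to -0.42 for *Foxa.a*. Members called lower ran from 0 to 1, and KH.S654.1 without control replicate 3 was that 1. Over all tested genes 252 were called higher and 398 lower, against 478 and 746 by DESeq2, 644 and 947 with the block, 108 and 199 at an adjusted p under 0.01, 166 and 338 without the libraries numbered 3, and 826 and 1102 with the block and without those libraries. With 1 library left out these counts ran from 147 to 305 and from 246 to 426. Of the muscle-associated homologs, 0 to 1 were called higher with 1 library left out, beside 147 to 305 of all tested genes. With 100 reads in at least 1 library 1 was called higher, beside 256 of all tested genes. At an adjusted p under 0.01 it was 0, beside 108.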
